A study of Mus musculus with 3 samples.

Results

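The enzymes and binding proteins that write, read and erase DNA methylation were examined in KO-actin cells through 9 genes: Dnmt1 and Uhrf1 (maintenance), Dnmt3a, Dnmt3b and Dnmt3l (de novo), Tet1, Tet2 and Tet3 (oxidation of the mark) and Mbd2 (reading of the mark). They were taken by gene symbol from the 46603 genes in the count tables, of which 21547 are protein-coding, and each was found once. The cells were MEFs (mouse embryonic fibroblasts) with the genotype label Beta-actin KO-NLS, that is, β-actin knockout cells in which NLS-tagged β-actin, directed to the nucleus, was expressed. Counts from 3 polyA RNA-Seq libraries were used, replicates 1 to 3. All of them share this genotype and none of the labels names a treatment, a time or an age, so levels and differences between genes are described here and no effect of β-actin can be read from them. The labels do not say whether the libraries came from separate cultures, and the cells are a previously generated line, so the spread between libraries may be technical.

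Cytosine methylation in mammals lies mostly on CpG dinucleotides. When DNA is copied, Uhrf1 binds CpG sites that carry the mark on the old strand alone and recruits Dnmt1, which restores it on the new strand. Dnmt3a and Dnmt3b place the mark on unmethylated sites and Dnmt3l, which has no activity of its own, stimulates them, mainly in germ cells and early embryos. The TET dioxygenases oxidise 5-methylcytosine, after which it can be lost by base excision or by dilution, while Mbd2 binds methylated CpG and brings the NuRD deacetylase complex to it. In fibroblasts, methylation is best known for holding a group of germline genes silent.

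The libraries held between 44383636 and 49932446 counts and their TMM scaling factors lay between 0.994 and 1.01. A count of 0 allows up to 3 counts, here called the floor, which corresponded to 0.0601 CPM (reads scaled to library size) in replicate 1, 0.0609 in replicate 2 and 0.0671 in replicate 3, and this limit covers counting error only. The targeted gene itself, Actb, had 1078, 1114 and 1063 CPM, although gene counts cannot separate the tagged copy from RNA of the knocked-out locus. Of 8 fibroblast markers, 7 were above the floor in every library, led by Vim, which encodes an intermediate filament, at 962 ± 50.2 CPM per kilobase of exon (SD, n = 3), while Thy1 was the lowest of the 7 at 0.279 ± 0.085 and Fap had 0, 0 and 1 counts. Of 8 pluripotency markers only Nanog (27, 26 and 30 counts) was above the floor throughout, Pou5f1 had 2, 0 and 0 counts, and Zfp42, Dppa5a and Utf1 had none. Some markers of other cell types were well above the floor. Among 6 epithelial markers 3 were above it, and the keratins Krt18 and Krt19 had 26.4 ± 0.754 and 23.8 ± 2.23 CPM per kilobase, while Epcam had 0, 1 and 0 counts. Among 6 blood markers 2 were above it, led by Cd74 at 6.70 ± 0.61, while Ptprc had 0, 1 and 0 counts. All 6 neuronal markers were above it, from Rbfox3 at 0.0526 ± 0.0039 to Tubb3 at 5.86 ± 0.549, and 1 of 6 germ cell markers was, Dnd1 at 0.51 ± 0.088 CPM per kilobase (SD, n = 3 for each), while Nanos3 had 0 counts. All 8 markers of cycling cells were above it, from Tyms at 23.5 ± 0.405 to Mcm5, a subunit of the replicative helicase, at 107 ± 3.58 CPM per kilobase (SD, n = 3).

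To show the sequence around which these genes work, the 250 bases before a start site are printed for 3 of them and for Tex19.1, a germline gene held silent by promoter methylation in somatic cells. The bases are from RefSeq on GRCm38.p6, written 5′ to 3′ on the strand of the gene, and capitals mark each CpG, the dinucleotide that the writers methylate and the TET enzymes act on. For Uhrf1, Dnmt1 and Dnmt3l the window is that of the second start in the table, counted along the direction of transcription, and none of these 3 windows holds an annotated exon of its gene. The windows lie at chr17:56304063-56304312 on the plus strand (Uhrf1), chr9:20952980-20953229 on the minus strand (Dnmt1), chr10:78049592-78049841 on the plus strand (Dnmt3l) and chr11:121145893-121146142 on the plus strand (Tex19.1).
Uhrf1: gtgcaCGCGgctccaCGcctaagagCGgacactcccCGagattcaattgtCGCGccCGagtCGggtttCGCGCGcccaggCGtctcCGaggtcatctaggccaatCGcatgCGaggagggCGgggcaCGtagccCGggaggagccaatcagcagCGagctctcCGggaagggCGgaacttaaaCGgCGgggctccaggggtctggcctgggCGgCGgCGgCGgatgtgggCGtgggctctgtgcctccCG
Dnmt1: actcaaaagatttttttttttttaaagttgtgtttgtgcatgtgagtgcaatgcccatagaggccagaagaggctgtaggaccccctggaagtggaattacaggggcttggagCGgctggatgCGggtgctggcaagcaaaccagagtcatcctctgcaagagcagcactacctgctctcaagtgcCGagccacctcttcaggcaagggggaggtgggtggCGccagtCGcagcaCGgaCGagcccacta
Dnmt3l: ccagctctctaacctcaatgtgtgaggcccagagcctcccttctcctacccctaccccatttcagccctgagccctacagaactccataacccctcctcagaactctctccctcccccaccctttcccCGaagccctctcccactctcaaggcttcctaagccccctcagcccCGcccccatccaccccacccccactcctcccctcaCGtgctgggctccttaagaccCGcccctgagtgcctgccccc
Tex19.1: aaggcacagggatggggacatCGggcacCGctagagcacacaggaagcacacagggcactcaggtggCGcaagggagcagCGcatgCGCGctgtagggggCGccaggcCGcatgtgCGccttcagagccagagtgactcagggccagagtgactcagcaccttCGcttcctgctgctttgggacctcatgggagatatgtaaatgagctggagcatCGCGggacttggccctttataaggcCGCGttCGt
The Uhrf1 window held 30 CpG, more than 94.1% of the 32851 promoters in the table, and the Tex19.1 window 15. The windows of Dnmt1 and Dnmt3l were poor in comparison, with 7 and 4 CpG. RefSeq starts were matched for 8 of the 9 genes, with 15 promoters among them; Mbd2 is named only. Across all promoters of the table the median was 6 CpG, with quartiles of 2 and 16. The TET promoters held 15 (Tet1), 51 (Tet2) and 17 CpG (Tet3), and that of Tet2 exceeded 99.9% of all promoters. Dnmt3b had 21 CpG, and the starts of Dnmt3a had 38, 40 and 15. The 3 starts of Dnmt3l, with 5, 4 and 3 CpG, all lay below the median, whereas Dnmt1 ranged over its starts from 2 to 26 and Uhrf1 from 10 to 30. Windows of 1 gene belong to the same locus, and some overlap an exon of another transcript of the gene (166 bases for the third Dnmt1 start, 100 for Tet1), so they are a description of the loci and not independent points. Since Dnmt1, Dnmt3a and Uhrf1 each have several starts and gene counts do not tell which was used, CpG content was not related to level.

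**Figure D1:**
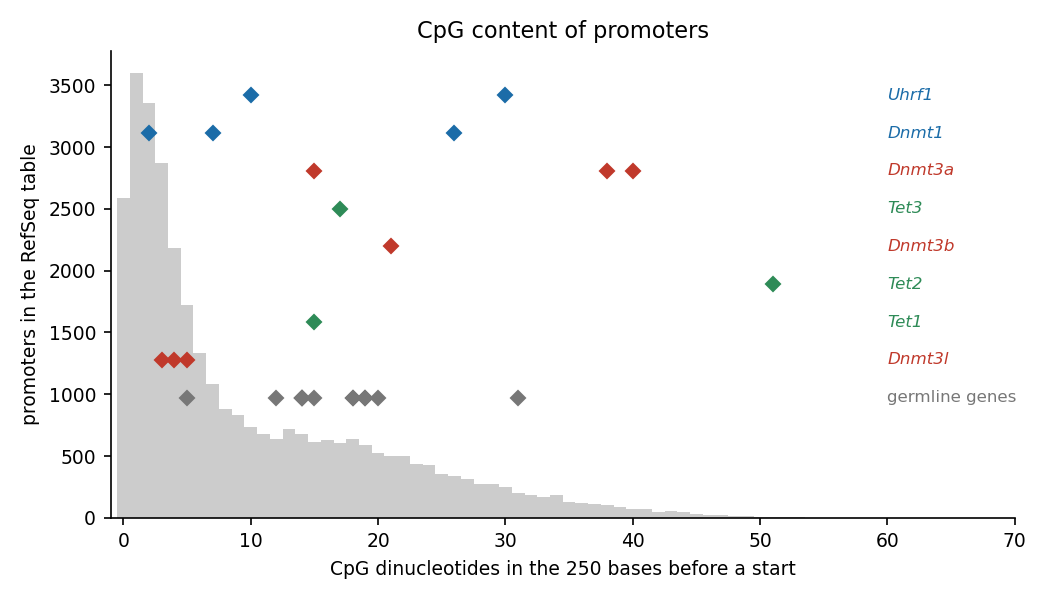
Number of CpG dinucleotides in the 250 bases before each RefSeq start (x axis) against the number of promoters with that number in the whole table (grey bars, y axis). Diamonds mark the starts of each gene and, in grey, of 11 germline genes, at arbitrary heights; the 3 Dnmt3l starts sit at 3 to 5 CpG and Tet2 at 51.

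The letters of the E2F motif, a site for factors of the G1 to S transition, were searched as TTTCCCGC, TTTCGCGC, TTTGCCGC and TTTGGCGC on both strands. They occurred in 1.86% of all promoters and in 2 of the 15 promoters of these genes, as TTTCGCGC in the Uhrf1 window printed above and as GCGCGAAA before the third Dnmt1 start. Both genes belong to the maintenance class. A motif was not limited to them, since the promoter of the germline gene Sycp3, with 6, 3 and 1 counts, held GCGGGAAA. A match of letters is not evidence of binding, and each of these motifs holds a CpG, which is also part of the CpG count.

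Of the 9 genes, 8 exceeded the floor in each library, against 59.0% of the 21547 protein-coding genes, and Dnmt3l was the exception. Levels of different genes were compared per kilobase of annotated exon, since longer transcripts give more reads. On this scale the maintenance genes stood highest, then Mbd2, and the de novo and TET genes followed well below. The median over all protein-coding genes was 0.52 CPM per kilobase, and that of the 12720 of them above the floor throughout was 6.43.

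**Figure D2:**
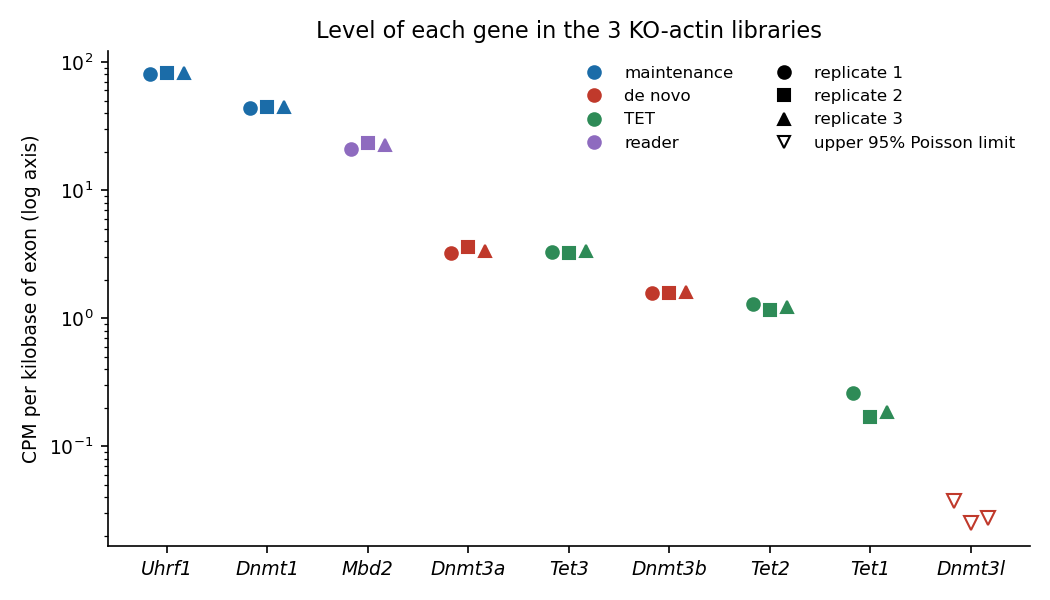
CPM per kilobase of exon (log axis) of each gene in each of the 3 KO-actin libraries, coloured by class; open triangles give the upper 95% Poisson limit for Dnmt3l. The libraries of a gene lie close together for all genes but Tet1, whose replicate 1 is highest at 0.262, and Uhrf1 and Dnmt1 lie above every other gene in every library.

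Uhrf1, which recognises hemimethylated CpG, lies on chromosome 17 from 56303321 to 56323486 on the plus strand of GRCm38. It had 17209, 17116 and 15562 counts in replicates 1, 2 and 3, which gave 344.8, 347.3 and 348.3 CPM and 81.0, 81.6 and 81.8 CPM per kilobase. The highest library was 1.01-fold above the lowest. At 81.4 ± 0.423 CPM per kilobase (SD, n = 3) it ranked 558 among protein-coding genes, above 97.4% of them. Stretches of 50 bases were used to measure sequence sharing, and 18.9% of those in the Uhrf1 mRNA are found elsewhere, mainly in the pseudogene Gm5648, which itself had only 192, 186 and 163 counts (2.30 to 2.42 CPM per kilobase). With windows of 100 bases the share was 7.05%, and how reads matching both were counted is not given.

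Dnmt1, the maintenance methyltransferase, lies on chromosome 9 from 20907209 to 20959888 on the minus strand. Its counts were 15987, 16225 and 14668, or 320.3, 329.2 and 328.3 CPM, and 43.4, 44.6 and 44.5 CPM per kilobase. Replicate 1 was the lowest of the 3, by 1.03-fold against the highest. At 44.2 ± 0.664 CPM per kilobase (SD, n = 3) Dnmt1 exceeded 94.2% of protein-coding genes, and its mRNA shared no 50-base window with another gene. Uhrf1 was above Dnmt1 in 3 of 3 libraries, by 1.84 ± 0.019-fold per kilobase (SD, n = 3).

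Mbd2, the methyl-CpG reader, lies on chromosome 18 from 70568189 to 70626131 on the plus strand. It had 3353, 3671 and 3233 counts, that is, 67.2, 74.5 and 72.4 CPM, or 20.9, 23.2 and 22.5 CPM per kilobase. Replicate 2 was highest and replicate 1 lowest, 1.11-fold apart. Its mean of 22.2 ± 1.17 CPM per kilobase (SD, n = 3) exceeded 87.8% of protein-coding genes. Dnmt1 was 1.99 ± 0.077-fold above Mbd2 (SD, n = 3), and Mbd2 was 6.54 ± 0.123-fold above Dnmt3a (SD, n = 3), with no overlap between libraries in either pair.

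Dnmt3a, a de novo methyltransferase, lies on chromosome 12 from 3806007 to 3914443 on the plus strand. Its 2676, 2943 and 2504 counts corresponded to 53.6, 59.7 and 56.0 CPM and to 3.22, 3.59 and 3.37 CPM per kilobase. As for Mbd2, replicate 2 was highest and replicate 1 lowest, here 1.11-fold apart. The mean of 3.39 ± 0.185 CPM per kilobase (SD, n = 3) was above 62.2% of protein-coding genes but below the median of those above the floor. Of its exonic bases 0.8% overlap the antisense gene Dnmt3aos, and whether counting used the strand is not given.

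Dnmt3b, the other catalytic de novo enzyme, lies on chromosome 2 from 153649450 to 153687730 on the plus strand. It had 399, 393 and 362 counts, which is 7.994, 7.975 and 8.102 CPM, or 1.57, 1.56 and 1.59 CPM per kilobase. The libraries were within 1.02-fold of each other. Dnmt3a exceeded Dnmt3b per kilobase by 2.06-fold in replicate 1, 2.30-fold in replicate 2 and 2.12-fold in replicate 3. Of the 50-base windows of Dnmt3b 11.5% also occur in Dnmt3c, its rodent-specific copy that acts in male germ cells, and Dnmt3c had 0, 0 and 1 counts.

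Dnmt3l, the accessory factor of the de novo enzymes, lies on chromosome 10 from 78041947 to 78063622 on the plus strand. It had 1 count in replicate 1 and 0 in replicates 2 and 3. The exact Poisson 95% intervals reached up to 5.57, 3.69 and 3.69 counts, or 0.112, 0.0749 and 0.0826 CPM. These are upper limits on its level, not detection limits. The intervals are two-sided and at a count of 0 reach past the 3 counts used as the floor. With the counts of the 3 libraries summed and compared per kilobase, the ratio to Dnmt3l was 1458 for Dnmt3a (exact binomial 95% interval 262 to 57613) and 675 for Dnmt3b (121 to 26696), where the width comes from the single Dnmt3l count. Even the lower ends left Dnmt3l far below both enzymes. Of its exonic bases 2.24% overlap Aire on the opposite strand.

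Tet3 lies on chromosome 6 (83362373 to 83459084, minus strand) and was the highest of the 3 dioxygenases. Its counts were 2716, 2657 and 2509, its CPM 54.4, 53.9 and 56.2, and its CPM per kilobase 3.26, 3.23 and 3.36. These libraries lay within 1.04-fold of each other. Tet3 and Dnmt3a could not be ordered, since their libraries overlapped: Dnmt3a over Tet3 was 0.988, 1.111 and 1.001, and leaving out replicate 2 turned the mean log2 ratio from 0.05 to -0.0076. An exact sign-flip permutation test (two-sided) of this ratio gave p = 0.75.

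Tet2, which lacks the DNA-binding CXXC domain of the other dioxygenases, lies on chromosome 3 between 133463679 and 133545139, on the minus strand. Its libraries held 1081, 971 and 925 counts, or 21.7, 19.7 and 20.7 CPM, and 1.28, 1.17 and 1.23 CPM per kilobase. Replicate 1 was the highest library, 1.099-fold above replicate 2. Tet3 was 2.54-, 2.77- and 2.74-fold above Tet2 per kilobase in replicates 1, 2 and 3.

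Tet1, the dioxygenase best known from pluripotent and germ cells, lies on chromosome 10 between 62804570 and 62908996, on the minus strand. Its libraries held 202, 129 and 128 counts, that is, 4.05, 2.62 and 2.86 CPM, or 0.262, 0.169 and 0.185 CPM per kilobase. Replicate 1 stood above both other libraries, 1.55-fold over replicate 2. Its mean of 0.206 ± 0.049 CPM per kilobase (SD, n = 3) exceeded 46.5% of protein-coding genes and, with counts summed over the libraries, was 88.7-fold above Dnmt3l (exact binomial 95% interval 15.8 to 3512). Tet2 was above Tet1 by 4.90-, 6.90- and 6.62-fold and Tet3 by 12.4-, 19.07- and 18.1-fold per kilobase, so that the order of the 3 dioxygenases was the same in 3 of 3 libraries.

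The classes were then compared by summing CPM per kilobase over their genes. The maintenance class had 124.4, 126.2 and 126.3 CPM per kilobase in replicates 1, 2 and 3, the de novo class 4.79, 5.15 and 4.95, and the TET class 4.81, 4.57 and 4.78. Maintenance genes were far above both other classes in every library, and the de novo and TET classes overlapped. Maintenance exceeded de novo by 25.3 ± 0.739-fold and TET by 26.7 ± 0.892-fold (SD, n = 3), while the ratio of de novo to TET was 0.998, 1.13 and 1.04. In an exact sign-flip permutation test (two-sided) over libraries, p was 0.25 for both maintenance comparisons (0.375 after Benjamini-Hochberg adjustment over the 3 pairs), which is the smallest p that 3 libraries allow, and 0.5 for de novo against TET (0.5 adjusted). The sizes depended on the length used. Exon length joins the exons of all annotated transcripts, and for Dnmt3a and the TET genes most of it is not coding sequence. Dnmt3a has 16.6 kb of exon and 2.72 kb of coding sequence, and Tet3 16.7 and 5.41. The longest protein-coding transcript has 9685 bases for Dnmt3a and 10904 for Tet3. Per kilobase of coding length the ratios were 9.02 for maintenance over de novo, 15.1 for maintenance over TET and 1.67 for de novo over TET. With the mean of the genes of a class in place of the sum, maintenance exceeded de novo by 37.96-fold and TET by 39.96-fold. In bulk RNA the number of cells with a transcript and its amount per cell cannot be told apart.

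**Figure D3:**
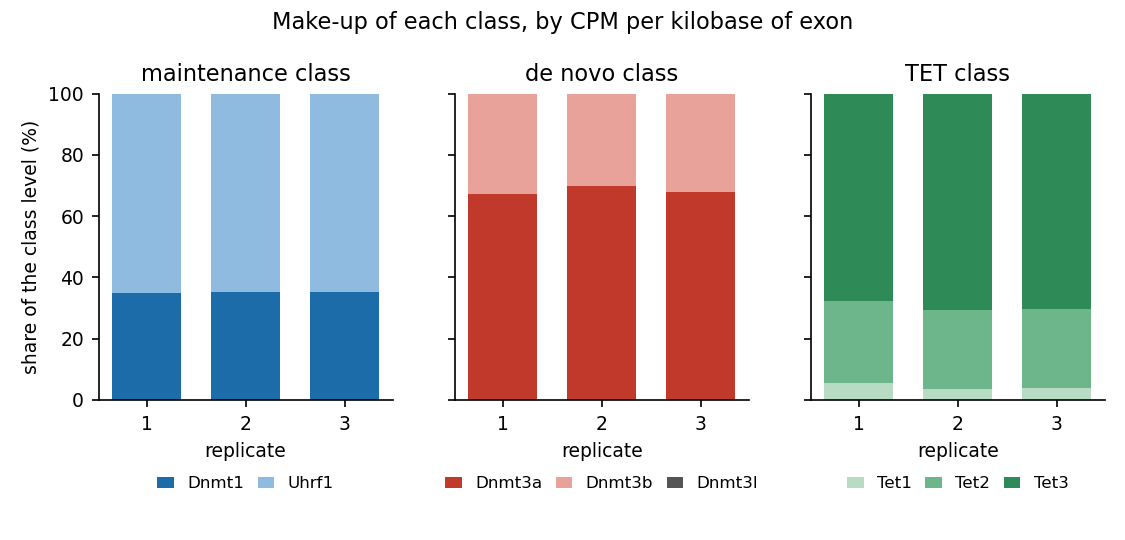
Share of each gene in the summed CPM per kilobase of its class (y axis, percent) in each of the 3 KO-actin libraries (x axis). Uhrf1 makes up about 65% of the maintenance class and Tet3 about 70% of the TET class, and the make-up is alike in the 3 libraries; Dnmt3l is too low to see.

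Within the classes the same genes led in each library. Uhrf1 held 64.8% ± 0.237 of the maintenance level and Dnmt1 the rest (SD, n = 3). Dnmt3a held 68.3% ± 1.27 of the de novo level and Dnmt3b 31.7% ± 1.21. Tet3 held 67.8%, 70.7% and 70.4% of the TET level, Tet2 26.7%, 25.6% and 25.7%, and Tet1 5.45%, 3.71% and 3.88%. Among the 3 catalytic methyltransferases Dnmt1 accounted for 89.9% ± 0.219, Dnmt3a for 6.90% ± 0.274 and Dnmt3b for 3.20% ± 0.056 (SD, n = 3). Shares of Dnmt3a rested on the length, since per kilobase of coding length it accounted for 22.8% ± 0.752 of the catalytic methyltransferases, Dnmt1 for 73.8% ± 0.67 and Dnmt3b for 3.42% ± 0.082. On that scale Dnmt3a held 86.9% ± 0.666 and Dnmt3b 13.1% ± 0.637 of the de novo level (SD, n = 3), and the leading gene of each class was the same.

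In descending order of CPM per kilobase the genes were Uhrf1, Dnmt1, Mbd2, Dnmt3a, Tet3, Dnmt3b, Tet2, Tet1 and Dnmt3l. The 8 genes above the floor form 7 neighbouring pairs, and 6 of these did not overlap between libraries and had the same direction in 3 of 3 (exact sign-flip permutation p = 0.25 each, 0.292 adjusted over the 7). Because the order was made from the means of these same libraries, a shared direction is partly built in. The test therefore lends the order no support. Tet3 over Dnmt3b was 2.09 ± 0.027 and Dnmt3b over Tet2 1.28 ± 0.059 (SD, n = 3). The order of Dnmt3b and Tet2 turned with the length: the ratio was 0.825 per kilobase of the longest protein-coding transcript and 0.867 per kilobase of coding length. By coding length Dnmt1 over Mbd2 shrank to 1.17 and Mbd2 over Dnmt3a to 2.77, Dnmt3a over Tet3 was 2.04 and Tet3 over Dnmt3b 3.26, and by the longest transcript Tet2 over Tet1 was 10.4.

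Variation between the libraries beyond counting error was tested per gene by a chi-square of the counts against the scaled library sizes, at an adjusted p threshold of 0.05. The minimum of 10 counts per library was met by 8 of the 9, of which 3 varied (Dnmt3a, Tet1 and Mbd2), against 43.9% of the 13814 genes tested, and this compares libraries, not conditions. A count of 3 among 8 is near that background share, which was not matched for count. Dnmt3a and Mbd2 deviated in the same pattern, with log2 deviations from their 3-library mean of -0.07 and -0.09 in replicate 1 and of 0.08 and 0.06 in replicate 2. Tet1 deviated by 0.38, -0.25 and -0.12 in replicates 1, 2 and 3, beyond the 95th percentile of all genes in replicate 1 (0.22) and just past the 5th percentile in replicate 2 (-0.25 for both). Among 996 genes with a mean count within 1.5-fold of that of Tet1, 63 (6.33%) had at least as large a ratio of highest to lowest library, and the median ratio was 1.23.

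**Figure D4:**
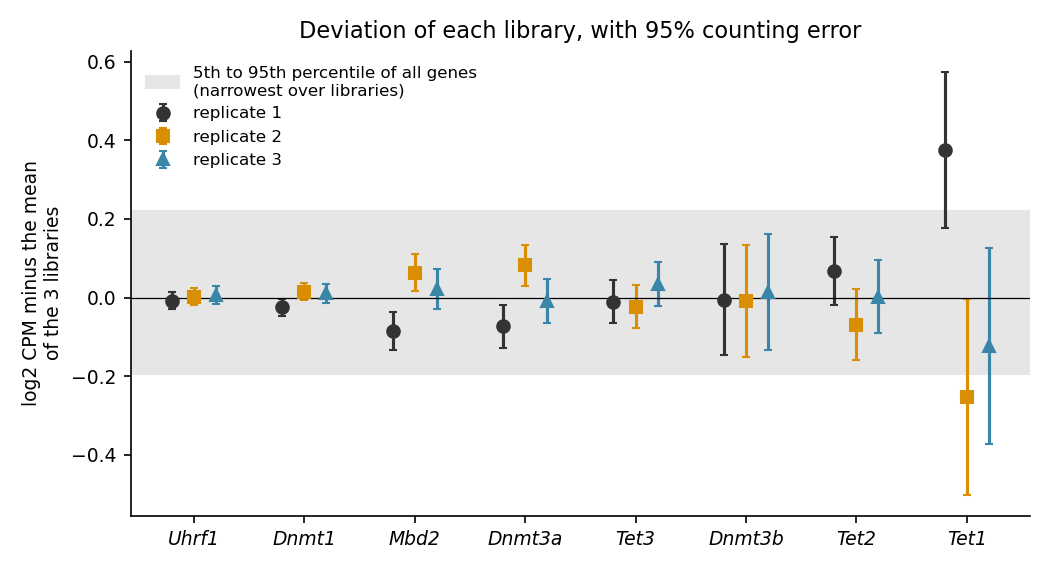
Difference between the log2 CPM in a library and the mean over all 3 (y axis) for the 8 genes above the floor, with bars of 95% counting error; the grey band runs between the 5th and 95th percentiles of all tested genes, taken where it is narrowest over the libraries. Tet1 lies above the band in replicate 1 (0.38) and below it in replicate 2 (-0.25), and the other 7 genes lie within 0.09 of 0.

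GC content of the longest transcript of each gene was set beside these deviations. Tet1 and Tet2, with 43.7% and 45.4% GC, were highest in replicate 1, and Mbd2, with 56.5%, was lowest there. Dnmt3a did not fall into this order, as it deviated like Mbd2 with only 51.9% GC, and the other 4 genes, with 53.1% to 54.0%, deviated little. After correction of the expected counts for GC content, 5 of the 8 genes varied, Dnmt1 and Uhrf1 being added, against 29.9% of all genes. Tet1, Dnmt3a and Mbd2 were called with and without the correction. Calls changed when a library was left out. Without replicate 1 only Dnmt3a varied, against 33.1% of all genes tested. Without replicate 2 Tet1 and Mbd2 varied (12.5% of all genes), and without replicate 3 Dnmt1, Dnmt3a, Tet1 and Mbd2 (34.0%). For Dnmt1 and Uhrf1 the differences concerned were small, since their libraries spread by 1.03- and 1.01-fold. The summed CPM of the cycling markers was 2679, 2621 and 2660, but the 8 markers did not move together over the libraries. Mcm2, Mcm5 and Tyms were highest in replicate 2 and lowest in replicate 1, as were Dnmt1, Dnmt3a and Mbd2, while Mki67, Ccnb1 and Rrm2 were highest in replicate 1 and lowest in replicate 2, as were Tet1 and Tet2. Ccna2 and Top2a followed neither order, and Tyms, Dnmt1 and Tet2 were not called as varying without GC correction. The part of the cycling genes in these levels was not tested.

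The wider pathway was described through 6 lists with 52 genes, of which 49 exceeded the floor in each library and 28 of these varied, beside 59.0% of protein-coding genes above the floor and 43.9% of all tested genes varying. The same 2 shares are the background for each list. Their median was 10.5 CPM per kilobase, above 77.2% of protein-coding genes. The exceptions were Dnmt3c (0, 0 and 1 counts), Cxxc4, a CXXC protein that binds Tet2 (0, 0 and 1), and Neil2, a glycosylase of base excision repair (6, 3 and 1). The 43.9% was not matched to the counts of the listed genes. When the minimum per library was raised from 10 to 100 counts, 52.0% of 11059 genes varied. Whether any list varied more than other genes of similar count was not tested.

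**Figure D5:**
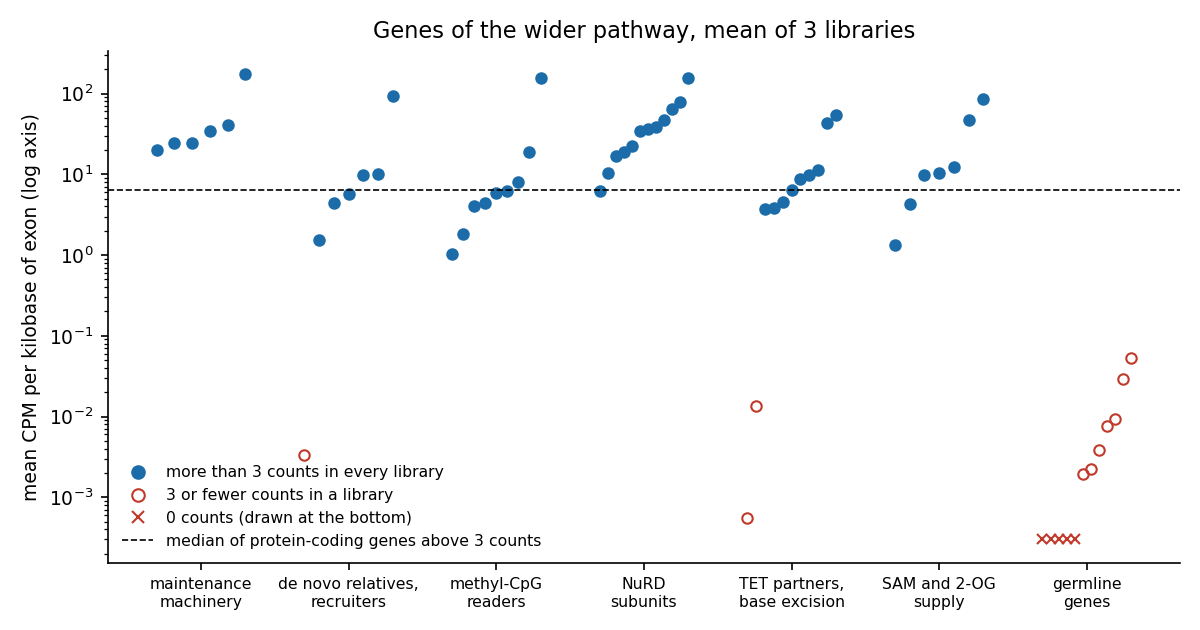
Mean CPM per kilobase of exon over the 3 KO-actin libraries (log axis) of each gene in the 6 pathway lists and the germline list (x axis). Filled points had more than 3 counts in every library, open points 3 or fewer in at least 1 library, and crosses 0 counts in all; 49 of 52 pathway genes are filled and all 12 germline genes are open or crosses.

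Partners of the maintenance enzymes were all abundant: 6 of 6 were above the floor, with a median of 29.6 CPM per kilobase, and 5 varied, with 43.9% varying over all genes. Pcna, the replication clamp to which Dnmt1 binds, was the highest at 174.7 ± 3.18 CPM per kilobase, 3.95 ± 0.016-fold above Dnmt1, although 31.8% of its 50-base windows occur in a pseudogene. Lig1, the ligase that Uhrf1 binds, followed at 40.4 ± 0.953. The lowest were Cdca7, the partner of the remodeller Hells, at 19.8 ± 1.09 and Uhrf2, the paralog of Uhrf1, at 24.4 ± 0.13 CPM per kilobase (SD, n = 3 for each). Uhrf1 exceeded Uhrf2 by 3.32-, 3.36- and 3.33-fold in replicates 1, 2 and 3.

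Among 7 relatives and recruiters of the de novo enzymes 6 were above the floor and 4 varied (43.9% over all genes), with a median of 5.70 CPM per kilobase. Trim28, the corepressor of zinc finger proteins, had 93.8 ± 2.40 and Setd2, which writes the histone mark that Dnmt3b reads, 10.1 ± 0.545. Trdmt1, which methylates tRNA, was lowest above the floor at 1.54 ± 0.042, and Nsd1, which writes the mark read by Dnmt3a, had 4.38 ± 0.204 CPM per kilobase (SD, n = 3 for each).

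All 9 other genes listed as readers of methylated CpG or their relatives were above the floor, with a median of 5.79 CPM per kilobase. Of these 4 varied, near the 43.9% over all genes. Binding was not measured, so a place in the list does not make a gene a reader. Mbd3, which resembles Mbd2 but binds methylated CpG poorly, was the highest with 146, 170 and 149 CPM per kilobase in replicates 1, 2 and 3, and it had its maximum in replicate 2, as Mbd2 did. It exceeded Mbd2 by 6.98 ± 0.369-fold (SD, n = 3). Mbd6 followed at 19.0 ± 0.066, and Mbd5 (1.03 ± 0.078) and the glycosylase Mbd4 (1.80 ± 0.137) were the lowest (SD, n = 3 for each).

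NuRD, the deacetylase and remodelling complex that Mbd2 or Mbd3 joins, had 12 of 12 listed subunits above the floor, with a median of 35.3 CPM per kilobase, and 7 varied (43.9% over all genes). The histone chaperone Rbbp7 (155 ± 0.793) and Mta2 (77.9 ± 1.08) were the highest, and Gatad2b (6.21 ± 0.58) and Mta3 (10.4 ± 0.133) the lowest (SD, n = 3). The value of Hdac1, 18.9 ± 0.797, is uncertain, since 58.7% of its 50-base windows occur in other genes, mostly the copy Gm10093, which had 2893, 2933 and 2705 counts of its own.

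Of 11 TET partners and base excision genes 9 were above the floor, with a median of 6.36 CPM per kilobase, and 5 varied (43.9% over all genes). Parp1, the sensor of strand breaks, had 53.6 ± 0.983 and Apex1, the abasic site endonuclease, 43.5 ± 2.99, and 65.6% of the Apex1 windows also occur in Pip4p1. The lowest above the floor were Cxxc5 (3.74 ± 0.198) and the glycosylase Neil1 (3.85 ± 0.156). Tdg, which excises the oxidised forms made by TET enzymes, had 8.87 ± 0.28 CPM per kilobase (SD, n = 3), with 66.3% of its windows in other genes.

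The 7 genes that supply S-adenosylmethionine, the methyl donor, and 2-oxoglutarate, the TET cosubstrate, were all above the floor, with a median of 10.5 CPM per kilobase, and 3 varied, near the share over all genes. The mitochondrial dehydrogenase Idh2 had 85.1 ± 4.30 and Mat2a, which makes S-adenosylmethionine, 46.6 ± 2.95. Mtr, methionine synthase, had 4.29 ± 0.075 (SD, n = 3). Ahcy, which removes the product inhibitor of methyltransferases, was lowest at 1.33 ± 0.146, but 77.0% of its windows are shared and the copy Gm4737 had 27.9 to 30.0 CPM per kilobase, so the level of Ahcy is uncertain.

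By closeness in mean log2 CPM per kilobase over the 3 libraries, the pathway genes nearest to Uhrf1 were Idh2 (0.06 above) and Mta2 (-0.06), and those nearest to Dnmt1 were Apex1 (-0.02) and Mat2a (0.07). Mbd2 lay beside Cdk2ap1 (0.01), a NuRD subunit with 88.9% of windows shared, and Uhrf2 (0.14). Dnmt3a and Tet3 had the same nearest genes, Cxxc5 (0.14 and 0.19) and Neil1 (0.18 and 0.23). Dnmt3b lay beside Trdmt1 (-0.03) and Mbd4 (0.19), and Tet2 beside Ahcy (0.11) and Mbd5 (-0.25). Tet1 had no close neighbour, as Mbd5 and Ahcy were 2.35 and 2.71 above it.

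Finally, 12 germline genes known for methylated promoters in somatic cells were counted, since they are the usual readout of this machinery. None was above the floor in every library, against 59.0% of protein-coding genes. Stra8, Hormad1, Slc25a31, Tex101 and Dppa3 had 0 counts in each library, which at the limit used for the floor allows up to 3 counts per library. Dazl had 0, 0 and 1 counts, Tex19.1 0, 1 and 1, Mael 0, 1 and 0, Ddx4 1, 0 and 0, and Taf7l 1, 1 and 1. Sohlh2 (4, 3 and 3) and Sycp3 (6, 3 and 1) had the most, and 50.4% of the Sycp3 windows occur in the overlapping gene Chpt1. Summed over the 12, the level was 0.24, 0.183 and 0.157 CPM in replicates 1, 2 and 3, not scaled to length. Per kilobase the highest of the 12, Sycp3, had 0.054 ± 0.039 CPM, against 0.206 ± 0.049 for Tet1 (SD, n = 3 for each). Starts were matched for 11 of the 12 and held 5 to 31 CpG in the 250 bases before them. Both ends of this range come from windows that overlap annotated exons of the gene itself. These are Stra8 (5 CpG, all 250 bases exonic) and Ddx4 (31 CpG, 165 bases exonic). DNA methylation was not measured in these libraries, and counts do not show what keeps a gene low.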

How the data were processed

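The authors deposited raw read counts per Ensembl gene for each KO-actin library, without normalization, for 46603 genes. The submitters' processing notes name Trimmomatic, FastQC, HISAT2, HTSeq and the build GRCm38 (mm10). Their versions, the annotation release, the strand setting and the treatment of reads matching several genes are not given in the sources used here, which can alter values of genes with near-identical copies. The study's methods name DESeq2 for its own tests.

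Symbols were matched for 46005 genes. Coordinates, exon and coding lengths and GC content came from GENCODE M21 on GRCm38, and promoters from RefSeq on GRCm38.p6. Library sizes (44383636 to 49932446 counts) were scaled by TMM in edgeR 4.0.16 (R 4.3.3), with total counts and DESeq2 1.42.0 size factors as alternatives. With 1 condition, edgeR has no contrast to test. Variation between libraries was assessed by a chi-square (2 degrees of freedom) for each gene that reached 10 counts in all libraries, with Benjamini-Hochberg adjustment, after the script was tested on simulated data. Ratios were tested by exact sign-flip permutation, two-sided. GC correction used the median deviation of each library within 50 bins. Sequence sharing was the share of 50- or 100-base windows of an mRNA found in transcripts of another gene, as the read length is not given. Python 3.11.15, numpy 2.4.6, pandas 2.3.3, scipy 1.17.1 and matplotlib 3.10.9 were used.

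The 9 genes, the gene lists and the tests were chosen with earlier results of these data known. Named were all 9 genes, list genes at or below the floor, the 2 highest and 2 lowest above it, the highest and lowest of marker lists, and the 2 pathway genes nearest to each of the 9. Hdac1, Tdg, Hells and those markers or copies named beyond this rule were chosen after their values were seen. Other alternatives were other lengths, count filters, class means and leaving out each replicate. Other genotypes were not used here.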

Additional observations from a re-analysis of the deposited data

How the results depend on the processing

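No paired analysis was possible because there is a single condition and hence no second group to pair with. Scaling by total counts or by DESeq2 size factors could not change a ratio, because both levels come from the same library and the scaling cancels. All 30 alternatives of the class differences kept the direction of the mean log2 ratio, and 53 of 56 of the neighbour order did. Both counts include these scalings, whose outcome was fixed in advance. So was that of the class mean for de novo over TET and of leaving out Dnmt3l for maintenance over TET. The class count also includes de novo over TET, whose libraries overlapped (0.998, 1.13 and 1.04), so it shows no order of those classes. The log2 ratio of Dnmt3a over Tet3 ranged from -0.0076 (without replicate 2) to 0.0769 when 1 replicate was left out, and that of Dnmt3b over Tet2 was -0.278 by the longest protein-coding transcript and -0.207 by coding length. By the longest transcript the class levels were 152.2 (maintenance), 7.69 (de novo), 7.503 (TET) and 36.5 (reader) CPM per kilobase, and by coding length 214.9, 23.8, 14.2 and 57.4. With exon length reduced by the share of windows found in other genes, an alternative chosen after seeing the data, maintenance had 144.6 and de novo 5.17. These shifts follow from the shorter lengths, and shares by coding length were likewise added after seeing the data. Of the 8 genes tested, 5 varied between libraries with GC correction (29.9% of all genes) and 3 without (43.9%). When 1 replicate was left out, between 1 and 4 varied, against 12.5% to 34.0% of all genes. Over all genes 6063 varied, and 1748 to 4786 when 1 replicate was left out, the lowest without replicate 2. The cause was not tested. With total counts or DESeq2 size factors 4 of the 8 genes tested varied, Dnmt1 being added, against 43.9% of all genes with either scaling.

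With 3 libraries no exact test can go below p = 0.25, so class and order differences rest on the spread between libraries. Depth limits Dnmt3l and the germline genes, which lie at or near the floor. It also limits Tet1, whose 128 to 202 counts left the widest counting error of the 8 genes tested (log2 standard error 0.102 to 0.128). Over all 3 libraries Tet1 also varied beyond that error.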
